A study of Homo sapiens with 9 samples.

Results

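THP-1 cells given bacterial lipopolysaccharide (LPS) together with panaxadiol (PD) were compared with cells given neither agent, to measure what remains of macrophage activation when PD is present. The members were the 3 LPS+PD libraries (replicates 7 to 9) and the 3 control libraries (replicates 1 to 3), taken by their titles, or 6 of the 9 libraries of the study. Expression was compared over the 13209 of 34643 genes that reached 1 FPKM (fragments scaled to exon length and library total) in at least 3 of these 6 libraries. THP-1 is a human monocytic leukaemia line grown as a single line, so the libraries show no variation between donors. All groups had first been exposed to the phorbol ester PMA at 500 nM for 4 h, which drives the line towards a macrophage state, then washed and rested for 24 h. Control cells received neither LPS nor PD. The LPS+PD cells received LPS at 1 µg/mL and PD, a plant triterpenoid, at 10 µM. The remaining group of 3 libraries (replicates 4 to 6) received LPS at the same dose without PD and is given beside the comparison for orientation. Its differences share control or LPS+PD libraries with the comparison and are not independent of it. No group received PD alone, so what PD does to resting cells was not measured. How long the cells were exposed and whether a vehicle was used is not given here.

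LPS is sensed by TLR4 with its partner LY96 (MD-2) and the co-receptor CD14. The adaptor MYD88 then leads to NF-kB and MAP kinases, which switch on cytokine and chemokine genes together with their own inhibitors, such as NFKBIA and TNFAIP3. The adaptor TICAM1 (TRIF) leads to IRF3 and interferon beta, which acts back on the cell through its receptor and induces antiviral genes. THP-1 cells start from a promyelocyte- and monocyte-like state, and the granule proteases of that state, such as CTSG, PRTN3 and ELANE, mark how far the cells have left it.

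The arms of the response end on different promoter sequences. The interferon-stimulated response element (ISRE) was searched as GAAA, any 2 bases and a second GAAA, and the NF-kB site as GGG, any 2 bases and TTTCC. Both strands were searched in the RefSeq promoter windows of build GRCh38.p14, which run from 250 bases before to 50 bases after a gene's start. Of all 35116 windows 3.57% held the ISRE letters and 1.91% the NF-kB letters. Shown are the windows with the motif among the largest rises of the interferon and NF-kB gene lists, 3 of each, read 5′ to 3′ on the gene's strand with the matches in capitals. The ISRE matches are in IFI6 (chr1:27672143-27672442, minus strand), IFI44 (chr1:78649539-78649838, plus strand, with the reverse complement of the motif) and OAS3 (chr12:112938224-112938523, plus strand).
IFI6: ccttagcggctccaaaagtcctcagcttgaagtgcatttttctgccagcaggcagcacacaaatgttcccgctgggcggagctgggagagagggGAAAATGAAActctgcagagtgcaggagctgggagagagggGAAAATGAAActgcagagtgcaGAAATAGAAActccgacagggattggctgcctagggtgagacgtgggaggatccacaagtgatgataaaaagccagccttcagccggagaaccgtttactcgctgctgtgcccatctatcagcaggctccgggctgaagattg
IFI44: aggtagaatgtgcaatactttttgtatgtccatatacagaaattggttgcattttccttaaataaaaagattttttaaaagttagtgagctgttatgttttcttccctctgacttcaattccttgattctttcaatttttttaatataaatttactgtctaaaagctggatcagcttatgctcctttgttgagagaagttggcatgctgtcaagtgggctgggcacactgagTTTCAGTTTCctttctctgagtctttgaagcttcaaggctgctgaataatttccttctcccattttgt
OAS3: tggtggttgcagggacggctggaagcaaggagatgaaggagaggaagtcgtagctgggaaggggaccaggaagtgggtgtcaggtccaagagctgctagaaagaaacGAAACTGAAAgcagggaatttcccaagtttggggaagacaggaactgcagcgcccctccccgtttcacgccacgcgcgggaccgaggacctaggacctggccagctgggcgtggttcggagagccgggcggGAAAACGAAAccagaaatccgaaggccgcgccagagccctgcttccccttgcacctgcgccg
The NF-kB matches are in TNFAIP3 (chr6:137867009-137867308, plus strand), NFKBIA (chr14:35404700-35404999, minus strand) and NFKB2 (chr10:102394328-102394627, plus strand). They read as the reverse complement of the motif in TNFAIP3 and NFKBIA and as the motif itself in NFKB2.
TNFAIP3: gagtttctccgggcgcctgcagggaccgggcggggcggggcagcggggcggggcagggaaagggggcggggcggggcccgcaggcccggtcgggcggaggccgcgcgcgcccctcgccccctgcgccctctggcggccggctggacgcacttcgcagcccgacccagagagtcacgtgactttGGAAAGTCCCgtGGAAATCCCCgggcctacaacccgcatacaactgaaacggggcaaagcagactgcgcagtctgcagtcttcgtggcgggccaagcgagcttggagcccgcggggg
NFKBIA: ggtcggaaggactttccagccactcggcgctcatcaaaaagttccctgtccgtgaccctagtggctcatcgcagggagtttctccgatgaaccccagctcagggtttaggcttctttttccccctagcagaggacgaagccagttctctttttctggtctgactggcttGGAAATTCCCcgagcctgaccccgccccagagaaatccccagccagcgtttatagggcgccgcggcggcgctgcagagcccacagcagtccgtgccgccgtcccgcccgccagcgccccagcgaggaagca
NFKB2: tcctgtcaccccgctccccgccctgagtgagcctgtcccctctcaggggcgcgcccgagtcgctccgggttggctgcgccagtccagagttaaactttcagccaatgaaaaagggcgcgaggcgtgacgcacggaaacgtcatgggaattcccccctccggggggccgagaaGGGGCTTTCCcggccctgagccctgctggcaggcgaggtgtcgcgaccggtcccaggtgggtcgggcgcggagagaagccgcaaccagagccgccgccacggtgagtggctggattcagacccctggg
IFI6 carries 3 ISRE matches, which start 156, 115 and 93 bases before the gene's start. OAS3 has matches 143 and 12 bases before it, and IFI44 has 1 match 18 bases before it. TNFAIP3 has 2 NF-kB matches only a few bases apart, at 67 and 55 bases before the start. NFKBIA has 1 at 81 bases and NFKB2 1 at 78 bases. Among the 31 NF-kB list genes with a window, of 35 tested, 11 held the NF-kB letters and 2 the ISRE letters. Counted by window, as in the shares over all windows, 12 of their 51 windows held the NF-kB letters and 2 the ISRE letters. For the interferon list 44 of 59 tested genes (74.6%) had a window, against 88.6% of the NF-kB list, and no count is given for so incomplete a list. A match describes letters in a window and is not evidence of binding.

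The libraries held 15641361 to 17875229 fragments each, as recovered from the FPKM values, and 12728 to 13056 genes at 1 FPKM or more. Correlations across genes were 0.989 to 0.992 within the groups and 0.927 to 0.932 between them. The first principal component of all 9 libraries held 82.3% of the variance and placed LPS+PD between control and LPS. On the second, with 6.09%, the LPS+PD libraries lay at -14.9 to -13.4, whereas control lay at 4.23 to 4.50 and LPS at 7.52 to 11.4. Of the 10 fixed monocyte and macrophage identity markers 9 passed the filter in the 6 libraries, and the summed level of the list was 723 to 759 FPKM in control and 1277 to 1332 FPKM with LPS+PD. CD68, a lysosomal glycoprotein widely used as a macrophage marker, was listed at a mean of 0.128 FPKM in control and 0.216 FPKM with LPS+PD. How fragments of overlapping genes were assigned is not known, so this level is uncertain. Summed lymphocyte markers stood at 16.7 to 23.2 FPKM in control and 20.9 to 23.8 FPKM with LPS+PD, nearly all of it NKG7, with CD3E and MS4A1 at no more than 0.1 FPKM. Epithelial markers summed to 2.96 to 3.04 and 2.82 to 3.21 FPKM, mainly MUC1, with EPCAM and KRT18 at or near 0. Fibroblast and endothelial markers summed to 34.5 to 35.6 and 47.4 to 48.2 FPKM, of which PECAM1, also a monocyte surface protein, made up nearly the whole. Neutrophil markers summed to 34.8 to 35.6 and 52.8 to 55.8 FPKM with FCGR3B at or near 0, and erythroid and megakaryocyte markers to 0.430 to 0.548 and 0.101 to 0.173 FPKM with HBA1 and PPBP at 0. The labels do not say that replicates came from separate cultures, so p-values reflect only how much these libraries vary, and that variation may be technical.

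Most of the measured genes differed between LPS+PD and control, many of them by little, and the large differences were mostly rises. At a Benjamini-Hochberg adjusted p below 0.05 in limma on log2(FPKM + 1), 7365 of 13209 genes were called (55.8%), 3426 higher (25.9%) and 3939 lower (29.8%) with LPS+PD. The median size of a called difference was 1.30-fold, against a median standard error of 0.06 on the log2 scale. Past 2-fold the balance turned, with 524 genes higher (3.97%) and 280 lower (2.12%). At 16-fold or more 24 genes were higher. Differences are on the log2(FPKM + 1) scale, which understates those of low genes. Any gene under 1 FPKM in every control library, as named control levels show, passed the filter through the LPS+PD libraries and could only be higher there. A gene under 1 FPKM in every LPS+PD library passed through control and could only be lower. There were 335 genes of the first kind and 327 of the second. The LPS+PD and control libraries did not overlap for 8247 genes (62.4%). List counts of called genes below stand against the shares of 25.9% higher and 29.8% lower over all genes. At least 2-fold, 716 genes were higher and 560 lower with a pseudocount of 0.1, and 738 higher and 635 lower with limma voom on the recovered fragments.

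**Figure D1:**
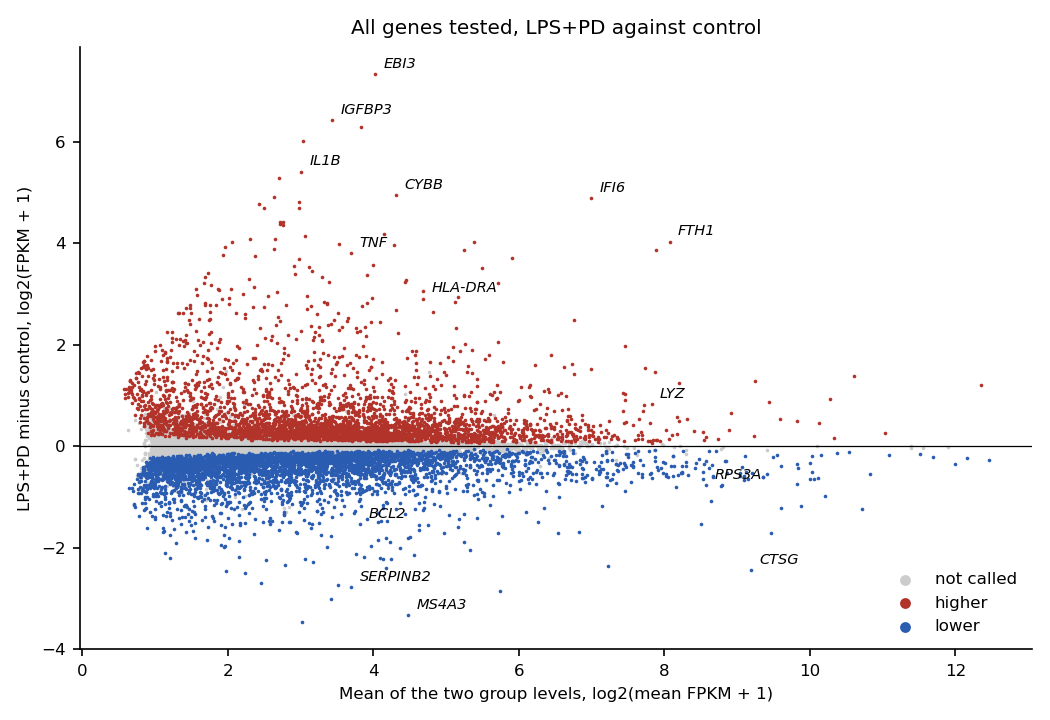
Difference between LPS+PD and control (y axis, log2(FPKM + 1)) against the level of the gene (x axis, mean of both group levels on the log2 scale), with 1 point per tested gene, coloured by whether it was called higher, called lower or not called. The 3426 genes called higher reach past 6 on the log2 scale, while falls of that size do not occur.

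Cytokine genes made up some of the steepest rises. Of the 12 tested members of the inflammatory cytokine list 10 rose and 1 fell, and 6 rose by at least 2-fold, with a list median of 1.09 against -0.03 over all genes on the log2(FPKM + 1) scale. Of these 12, 4 were under 1 FPKM in all control libraries and entered through their level with LPS+PD, so their direction is not independent of the filter. EBI3, a subunit shared by the cytokines IL-27 and IL-35, was at 0.354, 0.299 and 0.194 FPKM in control and at 196, 199 and 219 FPKM with LPS+PD. Its log2 difference of 7.33 (SE 0.05, adjusted p = 1.82e-12) was the largest that the naming rule took. IL1B, the interleukin-1 beta precursor, stood at 0.238, 0.206 and 0.261 FPKM in control and at 49.8, 53.2 and 51.7 FPKM with LPS+PD, a difference of 5.41 (SE 0.13, adjusted p = 9.56e-10). The groups lay far apart, and yet the LPS libraries were higher still, at 363, 524 and 548 FPKM. TNF, named in the title of the series, rose from 2.54, 2.44 and 2.41 FPKM to 46.0, 47.8 and 47.8 FPKM, or 19.1-fold (log2 difference 3.80, SE 0.04, adjusted p = 1.05e-11). Its level with LPS+PD was 36.7% of the mean level with LPS alone, against 10.8% for IL1B and 45.3% for EBI3. In bulk RNA, fewer responding cells and less RNA per cell cannot be told apart. IL6 could not be tested. It had no fragment in control and 0.297, 0.199 and 0.0814 FPKM with LPS+PD, which correspond to 3 to 11 fragments. IL18, an inflammasome substrate chosen here after its value was seen, was the cytokine that fell, from 7.34 to 4.24 FPKM (log2 difference -0.67, adjusted p = 5.87e-05).

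Most chemokines, which attract leukocytes, were higher with LPS+PD than in control. Of 12 tested CC chemokines 9 rose and 2 fell, with a median of 2.01, or 1.95 with the members that had no control fragment set at their bound. All 7 tested CXC chemokines rose by at least 2-fold, with a median of 3.34. However, 8 of the 12 and 7 of the 7 were under 1 FPKM in every control library and passed the filter through LPS+PD. The filter therefore fixed the direction of all 7 CXC genes and of those 8 CC genes. CCL2, the main monocyte attractant, was at 0.0858, 0.129 and 0.125 FPKM in control and 28.6, 26.4 and 28.0 FPKM with LPS+PD (log2 difference 4.69, SE 0.06, adjusted p = 1.57e-11). CXCL8, the neutrophil attractant interleukin-8, went from 0.325, 0.731 and 0.356 to 29.8, 29.4 and 31.0 FPKM, 63.9-fold (adjusted p = 9.74e-10). Neither gene's libraries overlapped between the groups, which the filter required of genes under 1 FPKM in every control library. CXCL10, an interferon-induced T cell attractant with at most 1 control fragment per library, reached 25.6, 29.6 and 26.3 FPKM. CXCL13, a B cell attractant, went from a mean of 0.0430 to 39.5 FPKM (log2 difference 5.28). CCL4L2 had no control fragment and stood at 13.4, 14.3 and 14.9 FPKM with LPS+PD, at least 108-fold higher against a floor of 3 fragments per control library. It is a near-identical copy of CCL4, which went from 0.0306 to 13.03 FPKM, and how fragments were divided between them is not known. With LPS alone the same genes were far higher, as for CCL2 at 223, 247 and 264 FPKM and CXCL13 at a mean of 345 FPKM. The level with LPS+PD was at the median 18.2% of that with LPS for the CC list (range 7.47 to 107%) and 30.7% for the CXC list. CCL23 and CCL22, named after their values were seen, were the CC members that fell, from 17.7 to 6.39 FPKM and from 2.76 to 2.07 FPKM.

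**Figure D2:**
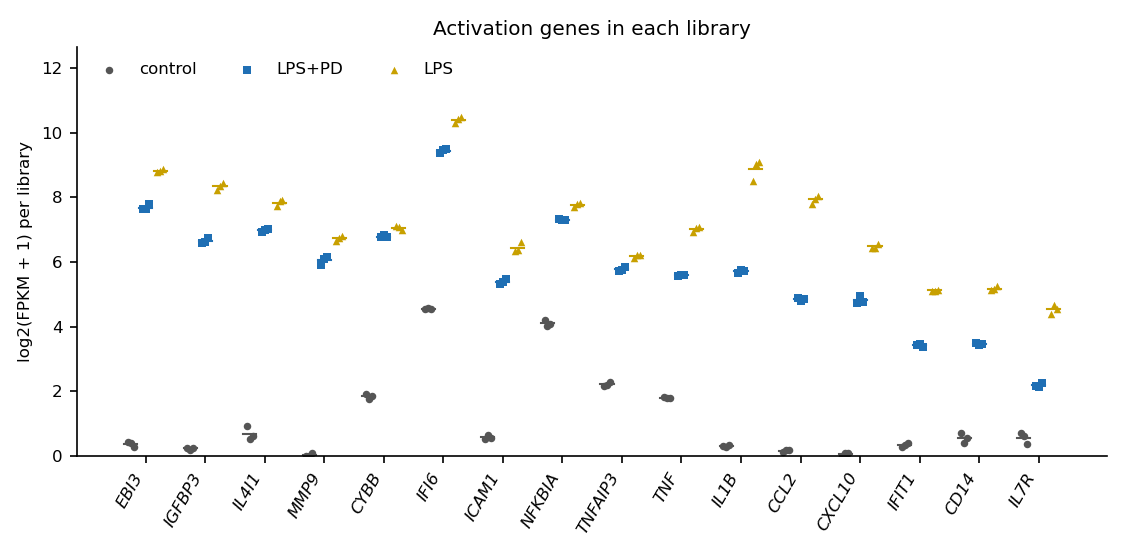
Level of activation genes in each library (y axis, log2(FPKM + 1)), with 1 point per library in control, LPS+PD and LPS and a bar at the group mean. LPS+PD libraries stand above control for the cytokines, chemokines, NF-kB feedback genes and interferon-stimulated genes plotted, and TNF at 46.0, 47.8 and 47.8 FPKM lies between control and LPS.

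NF-kB targets and feedback genes rose nearly throughout. On this list 32 of 35 tested genes rose, 24 of them by at least 2-fold, the other 3 were not called, and 4 of the 35 were under 1 FPKM in every control library. The median difference was 1.69. NFKBIA, the inhibitor that retains NF-kB in the cytoplasm, was at 17.5, 15.1 and 16.0 FPKM in control and 159, 158 and 157 FPKM with LPS+PD, 9.73-fold (log2 difference 3.21, SE 0.05, adjusted p = 5.43e-11). TNFAIP3, the ubiquitin-editing enzyme A20, went from 3.44, 3.59 and 3.84 to 51.4, 52.8 and 57.0 FPKM (log2 difference 3.56, adjusted p = 3.52e-11). Both carry the NF-kB letters in the windows printed above. ICAM1, the adhesion molecule that binds leukocyte integrins, rose from 0.429, 0.552 and 0.453 to 38.5, 40.2 and 43.3 FPKM (log2 difference 4.82, adjusted p = 5.19e-11). BCL3, an atypical nuclear I-kappa-B protein, went from a mean of 1.19 to 27.1 FPKM (log2 difference 3.69). With LPS+PD, NFKBIA stood at 72.5% and TNFAIP3 at 74.7% of the LPS level, and ICAM1 at 47.4%. The list median was 68.5%, with a range of 19.7 to 105%. Whether these percentages differ from those of the chemokine lists was not tested. Percentages of the LPS level, here and throughout, include the control level and are not the share of the rise that remained.

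The interferon programme was switched on nearly throughout. Of 59 tested interferon-stimulated genes 57 rose, 46 by at least 2-fold, and the list median was 1.79. Here 13 members were under 1 FPKM in all control libraries. IFI6, a mitochondrial and endoplasmic reticulum protein that protects infected cells from death, was already present in control at 22.1, 22.6 and 22.1 FPKM and rose to 656, 699.8 and 721 FPKM (log2 difference 4.89, SE 0.05, adjusted p = 4.31e-12). OAS3, which senses double-stranded RNA, went from 3.19, 3.16 and 3.05 to 71.0, 73.4 and 78.6 FPKM, 23.7-fold (adjusted p = 4.31e-12). IFIT1, which binds viral RNA caps, was at 0.209, 0.263 and 0.324 FPKM in control and 9.65, 10.1 and 9.29 FPKM with LPS+PD. IFI44, whose printed promoter holds an ISRE 18 bases before the start, went from a mean of 0.415 to 29.4 FPKM (log2 difference 4.42). For each of these genes all LPS+PD libraries lay above all control libraries. The filter required this of IFIT1 and IFI44, which were under 1 FPKM in every control library. Compared with LPS alone, the list stood at a median of 49.4% (range 21.4 to 84.4%). The member that fell was IFITM2, a membrane protein that blocks virus entry, from 50.1 to 42.2 FPKM (log2 difference -0.25), named after its value was seen. The member not called was TNFSF10, described further on.

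Genes of the machinery that senses LPS rose more often than they fell, mostly by small amounts. Of 28 tested genes of the LPS receptor pathway 14 rose, 5 of them by at least 2-fold, and 5 fell. The share that rose was above the 25.9% over all genes, and the share that fell was below the 29.8%. Of the 28, 3 were under 1 FPKM in every control library, CD14 and LY96 among them, and could only be higher. The list median was 0.19 against -0.03 over all genes. The number that fell depended on single libraries, at 2 without control replicate 3 and at 3 without LPS+PD replicate 7, LPS+PD replicate 8 or control replicate 1. The co-receptor CD14 was under 1 FPKM in control, at 0.632, 0.305 and 0.462 FPKM, and reached 10.3, 9.87 and 10.1 FPKM with LPS+PD (log2 difference 2.92, adjusted p = 1.52e-09). LY96 went from a mean of 0.0351 to 2.82 FPKM, and IKBKE, a kinase of the IRF3 branch, from 11.1 to 43.4 FPKM. TLR4 itself was lower, at 0.843, 0.772 and 0.833 FPKM with LPS+PD against 1.27, 1.22 and 1.25 FPKM in control, a small fall close to the filter (log2 difference -0.31, 95% interval -0.49 to -0.13, adjusted p = 0.00918). TLR4 was under 1 FPKM in every LPS+PD library, so it passed the filter through control and could only be lower. The adaptor TICAM1, picked after its value was seen, rose from 6.32, 5.90 and 6.09 to 12.4, 13.1 and 13.5 FPKM (log2 difference 0.98, adjusted p = 4.77e-08) and was at a mean of 12.8 FPKM with LPS alone.

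Of the TNF receptors TNFRSF1B rose and TNFRSF1A was not called. TNFRSF1A, the death-domain receptor of TNF found on most cells, was at 23.2, 24.4 and 24.0 FPKM in control and 23.7, 20.1 and 22.2 FPKM with LPS+PD. The groups overlapped and the gene was not called (log2 difference -0.12, 95% interval -0.25 to 0.01, adjusted p = 0.103). It was called lower without LPS+PD replicate 7 (adjusted p = 0.0239), with limma voom (0.0495) and with quantile normalization (0.0179). TNFRSF1B, the receptor without a death domain, rose 2.83-fold, from 17.998, 18.7 and 17.2 to 48.2, 52.9 and 51.6 FPKM (log2 difference 1.45, adjusted p = 4.84e-09). Its libraries lay wholly apart, and the difference between both receptors was not tested. On the list of TNF receptor signalling 18 of 32 tested genes rose (56.2%, against 25.9% of all genes) and 5 fell (15.6%, against 29.8%). The list median was 0.22, and the number lower was 9 with limma voom. Of the 32, 1 was under 1 FPKM in every control library. JUN, a subunit of the transcription factor AP-1 downstream of the receptor, went from a mean of 3.23 to 20.3 FPKM (log2 difference 2.34). Among those that fell, named after their values were seen, were the cell death proteases CASP8 and CASP10, the necroptosis kinase RIPK3 and the ubiquitin ligase subunit SHARPIN.

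IL7 and both chains of its receptor were low in control and rose. IL7, a lymphocyte growth factor, was at 0.1004, 0.0565 and 0.0917 FPKM in control and 1.204, 1.06 and 1.01 FPKM with LPS+PD (log2 difference 0.95, SE 0.10, adjusted p = 3.92e-05). Both levels are low. Like IL7R and IL2RG, the gene was under 1 FPKM in every control library and passed the filter through the LPS+PD libraries, so the direction of these 3 is not independent of the filter. IL7R, the receptor's alpha chain, was at 0.609, 0.517 and 0.277 FPKM in control and 3.45, 3.38 and 3.73 FPKM with LPS+PD (log2 difference 1.63, SE 0.09, adjusted p = 4.94e-07). LPS alone had brought it to 20.1, 24.4 and 22.1 FPKM, so that LPS+PD held 15.9% of that level, against 48.9% for IL7. IL2RG, the chain that IL7R shares with other cytokine receptors, rose from 0.0411, 0.116 and 0.0676 to 1.58, 1.58 and 1.28 FPKM. Between LPS+PD and LPS it was not called (log2 difference -0.10, adjusted p = 0.401). On the whole list of IL7 receptor signalling 14 of 23 tested genes rose (60.9%, against 25.9% of all genes) and 6 fell (26.1%, against 29.8%). Of the 23, 4 had been under 1 FPKM in every control library and 1 was under it in every LPS+PD library. The kinase PIM1 was among the risers, from 3.79 to 14.4 FPKM (log2 difference 1.68). STAT5B, which the receptor activates, was not called (log2 difference 0.05, 95% interval -0.03 to 0.13). BCL2, the survival factor that IL7 induces in lymphocytes and picked here after its value was seen, fell from 24.1, 22.1 and 22.9 to 7.54, 7.16 and 7.04 FPKM (log2 difference -1.54, adjusted p = 2.71e-09).

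Some genes of the activation lists were not called between LPS+PD and control, and the naming rule took at most 3 of each list. Not called were 9 of 28 LPS receptor pathway genes and 9 of 32 TNF receptor signalling genes. For the NF-kB and IL7 signalling lists the counts were 3 of 35 and 3 of 23. TNFSF10, the death ligand TRAIL and an interferon-induced gene, was at 4.38, 4.51 and 3.69 FPKM in control and 4.24, 4.36 and 4.10 FPKM with LPS+PD. The libraries were interleaved (log2 difference 0.01, 95% interval -0.15 to 0.18, adjusted p = 0.881). With LPS alone it was at 12.7, 10.9 and 12.2 FPKM, above every LPS+PD library (adjusted p = 1.62e-06). CCL24, an eosinophil attractant, had means of 1.10 FPKM in control, 0.839 FPKM with LPS+PD and 2.85 FPKM with LPS, with a wide interval for the first difference (-0.79 to 0.39). For the kinases MAP3K7 (TAK1) and IRAK1, which relay the TLR4 signal, the intervals were -0.06 to 0.10 and -0.03 to 0.10 on the log2 scale. LY86, partner of the TLR4 relative CD180, had a difference of -0.01 and an interval of -0.17 to 0.15. TNIP2, which binds TNFAIP3 and restrains NF-kB, had a difference of 0.13 (adjusted p = 0.0813). BCL2L1, the survival factor BCL-xL, was not called (log2 difference 0.17, adjusted p = 0.0614). It was called higher without LPS+PD replicate 7 (adjusted p = 0.0465) and with median-of-ratios scaling (0.0390). The ubiquitin ligase BIRC2 and the kinase subunit PIK3CD were not called (log2 differences -0.13 and -0.10), though they were called lower when the 6 libraries were fitted alone (adjusted p = 0.0346 and 0.0164). Limma voom (adjusted p = 0.0455 and 0.0173) and quantile normalization (0.0346 and 0.00851) also called both lower. The remaining activation genes named as not called were BAG4, MAP2K7, TRADD and PIK3CA, with differences of -0.12 to 0.04.

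**Figure D3:**
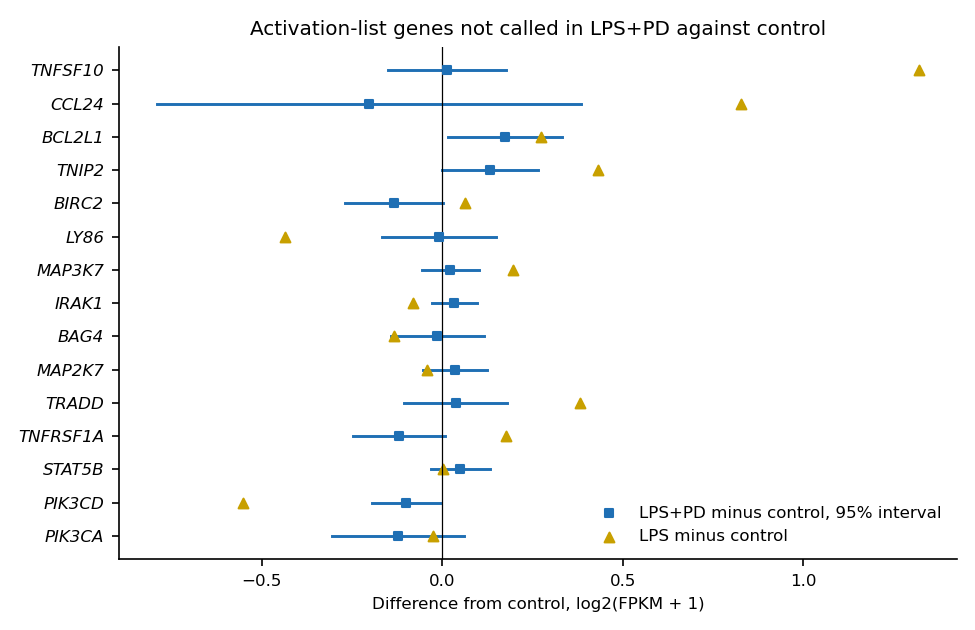
Differences from control (x axis, log2(FPKM + 1)) for the 15 named activation genes not called with LPS+PD, with squares and 95% intervals for LPS+PD minus control and triangles for LPS minus control. TNFSF10 sits at 0.01 with LPS+PD and at 1.32 with LPS.

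Genes outside the cytokine lists rose steeply too. Of those named here, IGFBP3, IL4I1, MMP9, ADAMDEC1, MMP25 and PLA2G7 were under 1 FPKM in every control library, so their direction is not independent of the filter. IGFBP3, which binds insulin-like growth factors, went from 0.174, 0.140 and 0.190 to 95.5, 96.4 and 105 FPKM (log2 difference 6.42, SE 0.06, adjusted p = 4.31e-12). IL4I1, an amino acid oxidase secreted by macrophages and dendritic cells, went from 0.908, 0.424 and 0.510 to 119.6, 126 and 129.5 FPKM (log2 difference 6.30, adjusted p = 6.91e-11). CYBB, the catalytic subunit of the phagocyte NADPH oxidase, was at 2.77, 2.38 and 2.57 FPKM in control and 107, 113 and 108 FPKM with LPS+PD. With LPS alone it was at 137, 136 and 125 FPKM, of which LPS+PD held 82.4%. The gelatinase MMP9 had at most 2 fragments in a control library and stood at 58.6, 66.9 and 70.5 FPKM with LPS+PD, 62.1% of the LPS level. ADAMDEC1, a metalloproteinase of macrophages, went from a mean of 0.132 to 33.0 FPKM, and MMP25 from 0.719 to 3.07 FPKM. Of 12 tested metalloproteinases and inhibitors 8 rose, 4 of the 12 having been under 1 FPKM in every control library, and 3 fell. In the synthesis of prostaglandins and leukotrienes 8 of 13 tested genes rose (61.5%) and 3 fell (23.1%). Of the 13, 3 had been under 1 FPKM in every control library and 1 was under it in every LPS+PD library. ALOX5AP, which presents arachidonic acid to 5-lipoxygenase, rose from 11.9 to 91.9 FPKM. LTC4S, the leukotriene C4 synthase, fell from 36.7 to 7.10 FPKM (log2 difference -2.22). PLA2G7, a lipoprotein-associated phospholipase with no control fragment, was at 5.20 FPKM, at least 57.6-fold higher.

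Antigen presentation genes rose. Of 21 tested genes of MHC class I presentation 18 rose and 3 were not called (median 0.37), with 1 of the 21, HLA-F, under 1 FPKM in every control library. Of 10 tested genes of class II presentation 9 rose and 1 was not called (median 0.63), with 2 of the 10 under 1 FPKM in every control library. The peptide transporter TAP1 went from 13.2 to 39.5 FPKM and HLA-F from 0.808 to 2.86 FPKM. Levels of HLA genes are uncertain, since near-identical copies share reads. HLA-DRA, the alpha chain of the class II molecule HLA-DR, was at 8.29, 7.29 and 9.67 FPKM in control and 74.3, 68.7 and 65.0 FPKM with LPS+PD, 8.23-fold (log2 difference 2.91, adjusted p = 3.37e-09). CD74, the invariant chain that guides class II molecules, rose from 55.9, 59.3 and 54.4 to 167, 169 and 168 FPKM and passed its LPS level of 139, 138 and 140.3 FPKM (log2 difference from LPS 0.27, adjusted p = 0.000144). The class II list stood at a median of 104% of LPS (range 78.5 to 150%) and the class I list at 93.7% (range 51.2 to 128%). The lowest of each were HLA-DRA at 78.5% and TAP1 at 51.2%. Both were called lower than with LPS (log2 differences -0.35 and -0.95, adjusted p = 0.00969 and 6.60e-07). Costimulatory and checkpoint ligands rose in 9 of 12 tested genes and were not called in 3, 4 of the 12 having been under 1 FPKM in control. CD40, which receives the T cell signal CD40L, went from 3.75 to 19.2 FPKM, and the receptor SLAMF7 from 0.0259 to 15.7 FPKM. IDO1, the tryptophan-degrading enzyme, had no control fragment and was at 2.21 FPKM with LPS+PD, at least 39.3-fold higher, against 23.0 FPKM with LPS.

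Most macrophage markers rose, and ITGAM rose further than with LPS alone. Of 18 tested macrophage markers 12 rose (66.7%) and 4 fell (22.2%), against 25.9% and 29.8% of all genes. Of the 18, 6 were under 1 FPKM in every control library. ITGAM, the CD11b integrin chain, was at 4.97, 4.97 and 5.06 FPKM in control, 18.1, 20.6 and 18.9 FPKM with LPS+PD and 12.999, 11.2 and 11.3 FPKM with LPS. It lay above LPS in all 3 libraries (log2 difference 0.65, adjusted p = 4.37e-05). LYZ, the bactericidal lysozyme, was at 170.3, 170.4 and 167 FPKM in control and 318, 296 and 289 FPKM with LPS+PD (log2 difference 0.83, SE 0.05), while LPS libraries held 172, 152 and 149.7 FPKM. FCER1G, the Fc receptor gamma chain, rose from 190.2 to 451 FPKM and the sialic acid receptor SIGLEC1 from 1.57 to 28.5 FPKM. TREM2, a lipid-sensing receptor, was a little lower with LPS+PD, at 46.3, 45.7 and 42.4 FPKM against 55.9, 52.0 and 50.6 FPKM (log2 difference -0.23, 95% interval -0.36 to -0.11, adjusted p = 0.00527), and at 20.1, 18.5 and 20.9 FPKM with LPS. Among 8 tested markers of alternative activation 4 rose and 3 fell. CD209, a C-type lectin, went from 9.62 to 27.3 FPKM, CHI3L1, a chitinase-like protein, from 514 to 936 FPKM, and F13A1, the coagulation factor XIII A chain, from 10.1 to 0.975 FPKM. On the lysosome list 17 of 35 tested genes rose (48.6%, against 25.9% of all genes) and 8 fell (22.9%, against 29.8%). The number that fell was 5 without LPS+PD replicate 9 and 4 at an adjusted p below 0.01. The cathepsin CTSH rose from 10.3 to 69.8 FPKM, the lysosomal regulator TFEB from 4.05 to 15.3 FPKM and the sphingolipid activator precursor PSAP from 139.7 to 387 FPKM. Of the neutrophil markers S100A12, an alarmin also made by monocytes, rose from 0.560 to 39.0 FPKM, whereas the receptors CXCR2 and CSF3R fell from 11.1 to 3.29 and from 23.3 to 12.03 FPKM. S100A12 was under 1 FPKM in every control library, so its direction is not independent of the filter.

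Most immediate early genes and listed glucocorticoid receptor targets were higher than in control as well. Of 25 tested immediate early genes 18 rose and 5 fell, 6 of the 25 having been under 1 FPKM in control, and the 5 became 3 without LPS+PD replicates 7 or 9 or control replicates 1 or 2. BTG2, an antiproliferative gene that p53 also induces, went from 9.01 to 143 FPKM (log2 difference 3.86). IER3, with no control fragment, was at 7.63 FPKM with LPS+PD, at least 56.6-fold higher. The immediate early list stood at a median of 66.5% of its LPS level (range 26.9 to 138%). FOS, an AP-1 subunit picked after its value was seen, was at 12.6, 14.6 and 10.7 FPKM in control and 40.1, 41.2 and 42.0 FPKM with LPS+PD, above its LPS level of 34.7, 28.8 and 26.0 FPKM (log2 difference from LPS 0.46, adjusted p = 0.0113). Glucocorticoid receptor targets rose in 8 of 10 tested genes and were not called in 2, led by MT2A and ALOX5AP. All tested members were lower than with LPS alone, at a median of 77.8% of that level (range 40.7 to 90.1%). SGK1, a salt- and stress-induced kinase, went from 0.134 to 6.03 FPKM. It was 1 of 2 list members under 1 FPKM in every control library, so its direction is not independent of the filter. Among inflammasome genes 6 of 15 rose (40.0%) and 5 fell (33.3%), against 25.9% and 29.8% of all genes. The bacterial sensors NOD2 and NLRC4 went from 1.22 to 4.21 FPKM and from 1.06 to 3.95 FPKM, and the ATP-gated channel P2RX7 from 1.87 to 11.95 FPKM.

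Oxidative-stress and metal-handling genes rose. Of 25 tested NRF2 antioxidant genes 21 rose and 4 were not called, with a median of 0.63 and with 3 members under 1 FPKM in control. The level was at the median 97.3% of that with LPS, with a range of 41.7 to 129%. FTH1, the ferritin heavy chain, went from a mean of 65.6 to 1087 FPKM (log2 difference 4.03), though its many pseudogenes make the level uncertain. The haem oxygenase HMOX1 went from 0.562 to 6.42 FPKM and malic enzyme ME1 from 3.36 to 17.6 FPKM. HMOX1 held 41.7% of its LPS level, FTH1 61.9% and ME1 73.2%. All 5 tested metallothioneins rose by at least 2-fold (median 1.202). MT1G was at 16.9, 18.3 and 16.2 FPKM with LPS+PD against 4.62, 5.71 and 5.72 FPKM in control and 14.9, 17.2 and 19.9 FPKM with LPS, MT1X went from 0.991 to 3.58 FPKM and MT2A from 9.33 to 167 FPKM, with the same doubt over shared reads. Glycolysis and hypoxia genes rose in 19 of 25, with 1 of the 25 under 1 FPKM in every control library. The growth factor VEGFA went from 1.23 to 6.21 FPKM and pyruvate kinase PKM from 74.1 to 214 FPKM. The lactate exporter SLC16A3 went from 25.6 to 52.6 FPKM.

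Lists of stress and lipid genes moved by smaller amounts. Their shares stand against 25.9% higher and 29.8% lower over all genes. On the list of ATF4 targets and the unfolded protein response 24 of 35 rose (68.6%) and 6 fell (17.1%). Of the 35, 1 was under 1 FPKM in every control library. ATF5 went from 11.7 to 43.2 FPKM and the cystine transporter SLC7A11 from 1.41 to 4.60 FPKM. The lipoprotein receptor VLDLR went from 15.2 to 4.64 FPKM. Heat shock proteins rose in 12 of 17 (70.6%, median 0.25), and HSPB1, HSPH1 and HSP90AB1 had log2 differences of -0.61, 0.53 and 0.53. Cholesterol synthesis genes rose in 15 of 26 (57.7%) and fell in 3 (11.5%). HMGCS1 went from 18.7 to 37.5 FPKM, DHCR7 from 10.99 to 19.5 FPKM and MVD from 10.7 to 16.9 FPKM. Targets of the liver X receptor, which senses oxysterols, fell in 7 of 14 and rose in 2. The apolipoprotein APOC1 went from 8.33 to 4.14 FPKM, the ligase MYLIP, which degrades the LDL receptor, from 8.44 to 5.19 FPKM and the receptor NR1H3 from 6.13 to 3.79 FPKM. On the list of p53 targets and apoptosis 13 of 22 rose (59.1%) and 7 fell (31.8%). The cell cycle inhibitor CDKN1A went from 13.7 to 36.9 FPKM and the death-promoting BMF from 2.30 to 7.59 FPKM.

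**Figure D4:**
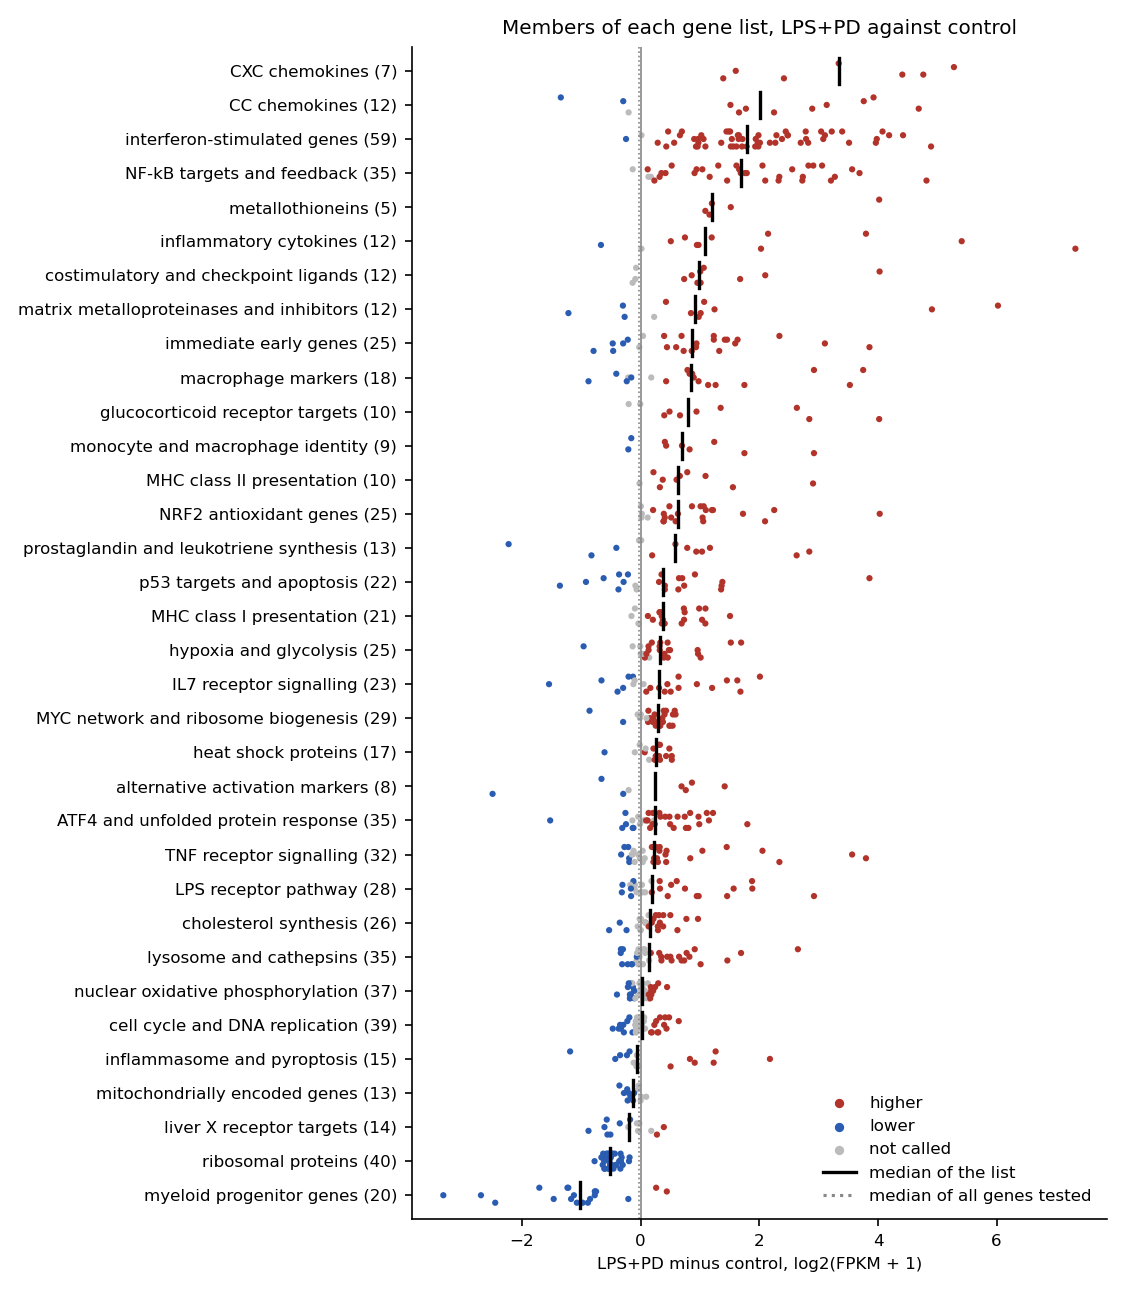
Differences between LPS+PD and control (x axis, log2(FPKM + 1)) for each tested member of each gene list with at least 5 tested members (y axis), coloured by call, with a bar at the list median. The CXC chemokine list has the highest median, 3.34, and the myeloid progenitor list the lowest, -1.03. All 7 tested CXC chemokines were under 1 FPKM in every control library, so the filter let them only be higher.

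Genes of the myeloid progenitor state fell. Of 20 tested members 18 fell, 10 of them by at least 2-fold, and 2 rose, with a median of -1.03 against -0.03 over all genes. Of the 20, 2 were under 1 FPKM in every LPS+PD library, so they entered through control and could only be lower. The summed level of the list was 10688 to 11395 FPKM in control and 4448 to 4544 FPKM with LPS+PD, and 3091 to 3306 FPKM with LPS. MS4A3, a membrane protein of granulocyte-monocyte progenitors, was at 69.4, 69.8 and 69.5 FPKM in control and 6.20, 5.99 and 5.95 FPKM with LPS+PD, so that control was 11.5-fold higher (log2 difference -3.33, SE 0.09, adjusted p = 2.20e-09). CTSG, the granule protease cathepsin G, fell from 1362, 1388 and 1331 to 259, 250.01 and 236 FPKM (log2 difference -2.45, adjusted p = 3.78e-10). MPO, myeloperoxidase, was at 2.80, 2.90 and 3.00 FPKM in control and 0.317, 0.418 and 0.509 FPKM with LPS+PD (log2 difference -1.47, adjusted p = 4.75e-07). As MPO was under 1 FPKM in every LPS+PD library, its direction is not independent of the filter. The serpin SERPINB10, which also belongs to this list, went from 13.001 to 1.17 FPKM. MYB, the transcription factor that sustains progenitors, was at 75.9, 74.0 and 77.1 FPKM in control and 42.9, 43.8 and 45.0 FPKM with LPS+PD (log2 difference -0.77, adjusted p = 6.80e-07). PRTN3 and ELANE, the neighbouring serine proteases of the granules and picked after their values were seen, fell from 1281 to 392 FPKM and from 1415 to 626 FPKM. For MS4A3, CTSG and MYB the LPS libraries were lower still, at means of 2.38, 143 and 28.8 FPKM.

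Other deep falls were in genes of varied roles. SERPINB2, the plasminogen activator inhibitor of monocytes, was at 33.8, 32.0 and 33.2 FPKM in control and 4.23, 3.99 and 3.66 FPKM with LPS+PD (log2 difference -2.78, adjusted p = 4.97e-09). TERT, the catalytic subunit of telomerase, went from 8.52, 7.80 and 8.34 to 0.751, 0.651 and 0.620 FPKM (log2 difference -2.46, adjusted p = 4.76e-09). As TERT was under 1 FPKM in every LPS+PD library, it passed the filter through control and could only be lower. NFE2, a transcription factor of blood cell precursors, went from a mean of 11.6 to 1.64 FPKM, where LPS had brought it to 1.46 FPKM. The noncoding RNA LINC02169 went from 142 to 18.8 FPKM, SEL1L3 from 40.4 to 6.87 FPKM and CLSTN2 from 14.5 to 2.07 FPKM. None of these groups of libraries overlapped, as the naming rule required of the 10 largest rises and 10 largest falls.

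**Figure D5:**
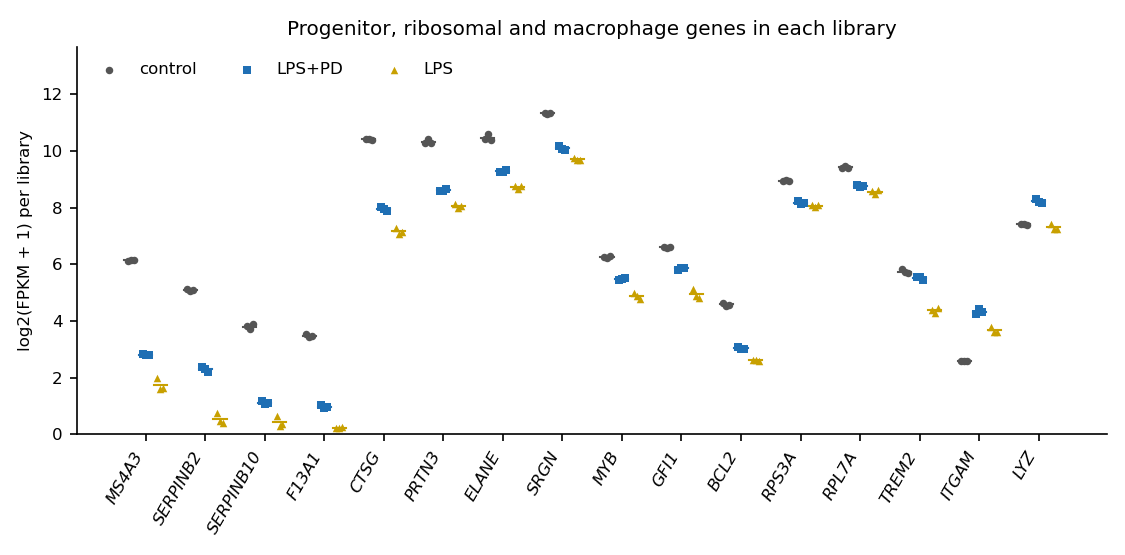
Level of progenitor, ribosomal and macrophage genes in each library (y axis, log2(FPKM + 1)), with 1 point per library and a bar at the group mean. MS4A3 lies at 6.20, 5.99 and 5.95 FPKM with LPS+PD against a control mean of 69.6 FPKM, while LYZ and ITGAM with LPS+PD stand above both other groups.

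Cytoplasmic ribosomal protein genes fell, while most genes of the mixed list of the MYC network and ribosome biogenesis rose. All 40 tested ribosomal protein genes were called lower with LPS+PD, against 29.8% of all genes, with differences of -0.78 to -0.19 and a median of -0.51. Their summed level was 19391 to 19884 FPKM in control, 13464 to 14473 FPKM with LPS+PD and 12353 to 12771 FPKM with LPS. RPS3A was at 495, 504 and 488 FPKM in control and 300.3, 281 and 286 FPKM with LPS+PD (log2 difference -0.78, adjusted p = 2.09e-08), and RPL7A and RPS12 had differences of -0.66 and -0.65. Ribosomal protein genes have many processed copies in the genome, which makes single levels uncertain. On that mixed list 22 of 29 tested genes rose and 2 fell (median 0.29). RRP12 and RRP9, which process ribosomal RNA, had differences of 0.59 and 0.57, and the MYC antagonist MXI1 of -0.86. FPKM are shares of a library total. Of the 40 ribosomal protein genes 40 were called lower with median-of-ratios scaling and 37 with quantile normalization.

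Proliferation and mitochondrial genes changed by small amounts. Of 39 tested cell cycle and DNA replication genes 12 rose and 9 fell, with a median of 0.02, shares near the 25.9% higher and 29.8% lower over all genes, and quantile normalization called 16 lower. The G1 cyclin CCNE1 and the ribonucleotide reductase subunit RRM2 rose (log2 differences 0.64 and 0.48), and the mitotic cyclin CCNB2 fell (-0.47). Nuclear genes of oxidative phosphorylation rose in 10 and fell in 11 of 37, again near the shares over all genes, with 5 to 7 lower when LPS+PD replicate 8 or 9 or any control replicate was left out. CYC1, UQCRH and SDHB, subunits of the respiratory chain, had differences of 0.45, -0.40 and 0.30. Mitochondrially encoded genes fell in 8 of 13 (61.5%, against 29.8% of all genes) and were not called in 5. MT-CO1, MT-CO2 and MT-CO3 had differences of -0.28, -0.23 and -0.36. Quantile normalization called 5 of the 13 lower and 2 higher.

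For some genes the LPS+PD libraries lay outside both other groups and the LPS mean lay on the other side of the control mean. The naming rule chose 10 genes for that order, so their values are a description. For 5 of them, LYZ, ALDH2, TMEM205, PLAC8 and MYOF, LPS was not called against control (adjusted p = 0.1097, 0.194, 0.753, 0.332 and 0.219), so the side on which LPS lay is not settled. The largest such rises were LYZ, given above, the amine oxidase AOC1, the aldehyde dehydrogenase ALDH2, the membrane protein TMEM205 and GM2A, the lysosomal ganglioside activator. AOC1 was at 9.13, 9.56 and 8.36 FPKM in control, 12.6, 12.5 and 12.8 FPKM with LPS+PD and 6.94, 6.06 and 5.90 FPKM with LPS. ALDH2 was at 7.35, 7.79 and 7.14 FPKM in control, 11.2, 10.8 and 10.9 FPKM with LPS+PD and 7.61, 6.78 and 6.41 FPKM with LPS. Mean levels of GM2A were 19.4, 25.7 and 17.7 FPKM in the same order, and those of TMEM205 6.51, 9.00 and 6.24 FPKM. The largest such falls were PLAC8, a cysteine-rich protein of immune cells, the myosin MYO1G, the calcium-binding protein TESC, the stress gene GADD45B and the membrane repair protein MYOF. PLAC8 was at 66.3, 64.1 and 63.3 FPKM in control, 43.2, 38.7 and 39.0 FPKM with LPS+PD and 64.8, 66.3 and 70.1 FPKM with LPS. GADD45B, which NF-kB and stress signals can induce, was at 12.5, 12.5 and 10.2 FPKM in control, 8.71, 8.62 and 9.21 FPKM with LPS+PD and 15.6, 16.3 and 17.4 FPKM with LPS. MYO1G went from 16.8 FPKM in control to 11.8 FPKM with LPS+PD against 24.3 FPKM with LPS, TESC from 5.52 to 3.77 FPKM against 6.65 FPKM, and MYOF from 5.49 to 4.09 FPKM against 5.87 FPKM.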

How the data were processed

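Poly(A)-enriched RNA of THP-1 cells was sequenced in 9 libraries, which were grouped by their titles. The authors deposited 1 table of FPKM values for 34643 genes, and GRCh38, HISAT2, StringTie, bcl2fastq and FastQC are listed in the submitters' processing notes. How fragments of shared or overlapping genes were assigned, and whether strand was used, is not given in the sources used here. FPKM values multiplied by the exon length of GENCODE v29 came out as whole fragments, within 0.05, for 97.8 to 98.0% of values, which gave the depth. The top 10 genes of a library made up 12.8 to 13.6% of its FPKM total. Floors of 3 fragments cover counting error only, since fragments without molecular identifiers are not independent molecules.

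Differences were computed on log2(FPKM + 1) with limma 3.58.1 (R 4.3.3), with 1 model of 3 group means over all 9 libraries, eBayes with an intensity trend and Benjamini-Hochberg adjustment over the 13209 genes tested. The LPS libraries entered for the shared estimate of the spread. The test was checked on simulated data. Percentages of the LPS level are ratios of group mean FPKM with the control level not subtracted. TNFSF10, for example, stood at 35.4% of LPS with means of 4.19 FPKM in control and 4.23 FPKM with LPS+PD. Promoter windows are RefSeq's, matched by symbol.

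Genes named are the 10 largest rises and 10 largest falls, the 3 largest called differences per gene list, up to 3 members not called per activation list, 20 genes fixed by name, and the 5 largest rises and 5 largest falls that lay beyond both other groups with LPS on the other side of control. The first and the last of these had no overlap between libraries and a mean of at least 5 FPKM in a group. A few genes taken by this rule are not reported here. Genes named outside the rule are marked as picked with their values known. Gene lists, members and tests were chosen with earlier results of these data known, and lists are described by counts and medians without a test. Alternatives covered the pseudocount, the filter, the scaling, a fit of the 6 libraries alone, no intensity trend, limma voom on recovered fragments, the threshold and each of the 6 compared libraries left out in turn.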

Additional observations from a re-analysis of the deposited data

How the results depend on the processing

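Under the 15 alternatives the counts of genes called higher stayed within 2591 to 3766. The count of genes called lower was 2442 with a filter at 5 FPKM, against 3939, where 7549 genes were tested. Genes lower by at least 2-fold, 280 in the main setting beside 524 higher, numbered 170 with that filter (353 higher), 635 with limma voom (738 higher) and 560 with a pseudocount of 0.1 (716 higher), which weighs low genes more. With each of the 6 compared libraries left out in turn (the LPS libraries were not left out), 3141 to 3250 genes were higher and 3522 to 3763 lower, 522 to 539 higher by at least 2-fold and 286 to 297 lower by at least 2-fold. Higher calls made up 51.2% of all calls with median-of-ratios scaling and 44.2% with quantile normalization, against 46.5%. Of the 126 named genes called, 0 lost the call or changed direction in an alternative that tested them. Many had been named for the largest called differences of the main setting and so were likely to keep their calls. Of the 15 named genes not called, 4 gained a call in at least 1 alternative. These were TNFRSF1A, BCL2L1, BIRC2 and PIK3CD.

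List counts moved more with the filter at 5 FPKM, which removes low members, with 9 of the IL7 signalling genes higher against 14, 5 class II genes against 9, and 5 against 8 for both metalloproteinases and prostaglandin synthesis. Lists with no member called lower gained 1 such member in some alternatives. This held for the NF-kB list in the 6-library fit, for the NF-kB, class I and glucocorticoid lists with limma voom, and for the NF-kB, class I, class II and costimulatory lists with quantile normalization. It also held for class I and costimulatory genes without control replicate 3, and for costimulatory genes without LPS+PD replicate 9. No paired analysis was possible because the groups share no replicate number. The 3 libraries per group, with depths of 15641361 to 17875229 fragments, limit what can be said of genes near 1 FPKM, such as IL7 and TLR4.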
